A study of Homo sapiens with 10 samples.

Results

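The HOX genes encode homeodomain transcription factors that give cells their position along the head-to-tail axis and along the limbs. In human cells 39 of them lie in 4 compact clusters, in which the order of the genes along the chromosome follows the order of the body regions where they act. An active stretch of a HOX cluster carries H3K27ac (histone H3 acetylated on lysine 27, found at promoters and enhancers in use), whereas a silent stretch is usually held by Polycomb proteins. Cells of the skeletal muscle lineage keep part of the HOX pattern of the body level they come from.

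The members described here were the H3K27ac peaks whose start lay in 1 of 4 windows of the human genome build hg19: HOXA (chr7:27100000-27270000), HOXB (chr17:46590000-46830000), HOXC (chr12:54310000-54470000) and HOXD (chr2:176930000-177080000). By this rule 58 of the 42067 peaks in the table were members: 17 in HOXA, 19 in HOXB, 12 in HOXC and 10 in HOXD. Every one of them passed the filter on low counts. Per RefSeq (GRCh38), HOXA holds 11 HOX genes, HOXB 10, HOXC 9 and HOXD 9. The table of peaks names no genes and is on another build than the gene table, so peaks are given by position and not by the HOX gene beside them. For the same reason the HOX cofactors of the PBX and MEIS families could not be counted, and the markers of the cell line were not checked.

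H3K27ac was measured by chromatin immunoprecipitation and sequencing in Rh30 cells, an established line of alveolar rhabdomyosarcoma, a childhood tumour with features of skeletal muscle. In all groups PAX3-FOXO1, the fusion transcription factor that drives this tumour, carried FKBP, a tag through which the ligand dTAG47 brings a protein to degradation. The groups were DMSO, the solvent, and 500 nM dTAG47 for 2 h, 4 h and 24 h, with 2 libraries each, named A and B in the table. The labels give no time for DMSO, so time in culture and time with dTAG47 cannot be told apart, and every comparison with DMSO shares the same 2 libraries. The cells are a single line, and nothing states that libraries came from separate cultures, so p-values measure the spread between these libraries, which may be technical.

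Libraries held 3540104 to 5001652 counts in peaks, of which the 58 HOX peaks took 0.163% to 0.173%. Levels are given in CPM, counts scaled to a common library total, with TMM factors between libraries, a method that assumes most peaks do not change. A change shared by all peaks would therefore not be seen. Peaks are windows of 400 bases, so levels of different peaks refer to the same width. DNA copy number was not measured and the input libraries were not used. Levels compared between peaks or clusters are therefore not corrected for copy number. Single HOX peaks held 9 to 390 counts in a library, and the median standard error of their log2 change at 24 h was 0.155. A change of about this size at 1 peak was not detectable at this depth, and larger ones could be missed. The HOXB peak chr17:46663067-46663467 had a log2 change of -0.455 at 24 h (SE 0.223) with an edgeR adjusted p of 0.216.

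All 4 clusters carried H3K27ac in Rh30 cells, at levels that differed between clusters. Summed over its peaks, HOXA averaged 596.7 CPM over the 8 libraries, HOXB 569.4 CPM, HOXC 322.1 CPM and HOXD 201.4 CPM. In these sums HOXA lay above HOXB in 6 of 8 libraries with a ratio from 0.961 to 1.15, so that the sums of these neighbours did not differ beyond their spread. The HOXB sum lay above that of HOXC by 1.62 to 1.92 times and the HOXC sum above that of HOXD by 1.52 to 1.71 times in 8 of 8 libraries. Per kilobase of window the means were 3.51, 2.37, 2.01 and 1.34 CPM, in the same order. Only counts inside peaks enter these sums, here and where the signal of a cluster is named. Values per kilobase therefore also depend on the number of peaks and on the bounds of the window. On that scale HOXA lay above HOXB by 1.36 to 1.63 times, HOXB above HOXC by 1.08 to 1.28 times and HOXC above HOXD by 1.43 to 1.6 times, each in 8 of 8 libraries. The median peak was at 26.8 CPM in HOXA, 25.6 in HOXB, 20.2 in HOXC and 18.1 in HOXD, against 13.7 CPM over all peaks tested.

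**Figure D1:**
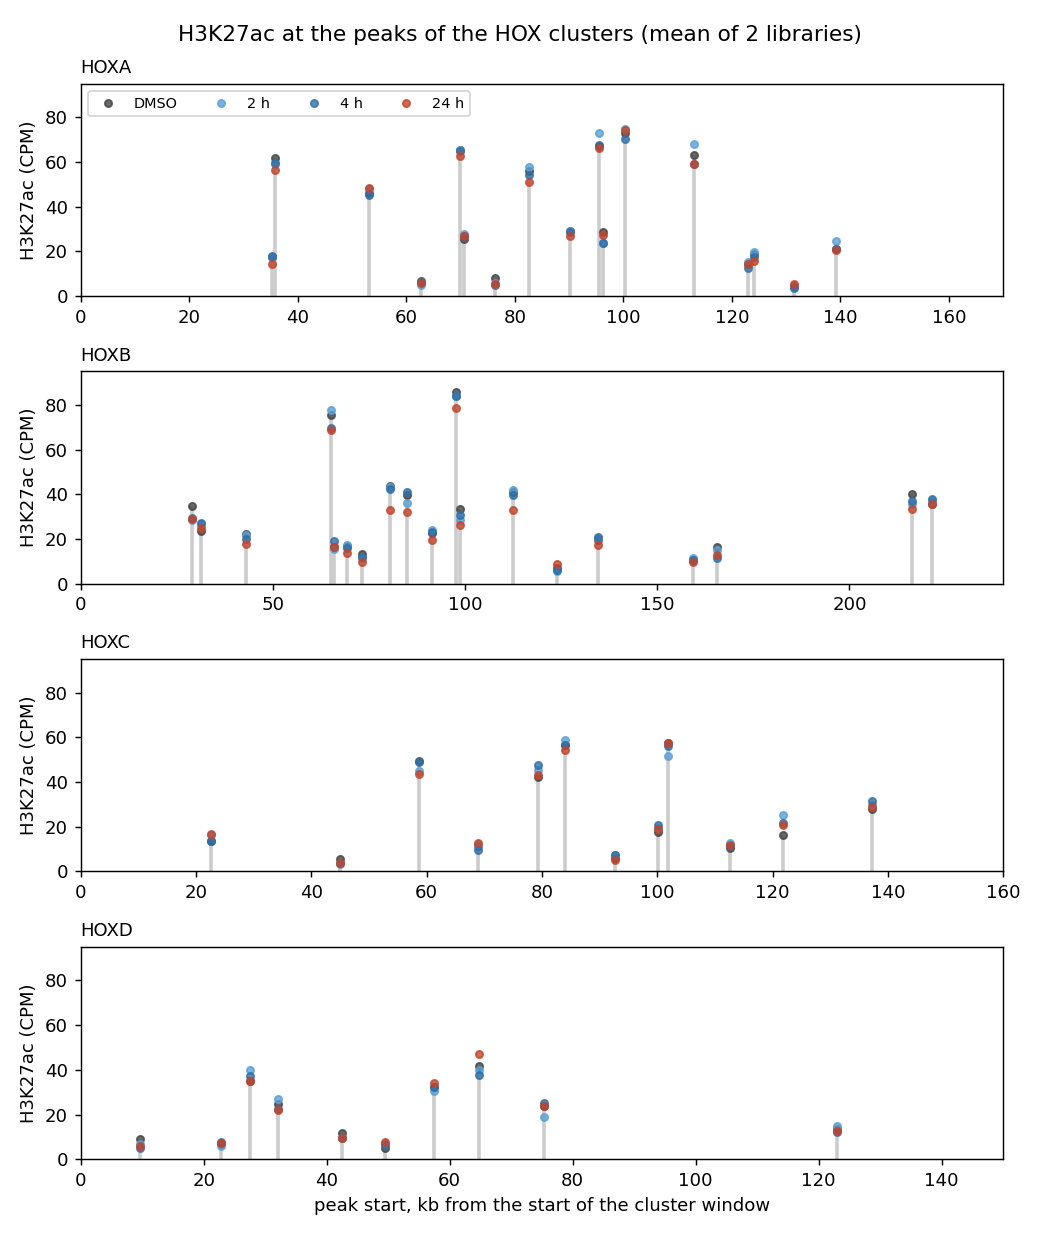
H3K27ac level of each HOX peak in CPM (mean of 2 libraries per group, coloured by group) against the distance of its start from the start of the cluster window in kb; grey stems mark the DMSO mean. Each cluster holds both strong and weak peaks, and the outer parts of the windows hold few or no peaks.

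Within each cluster the signal was uneven. In HOXA the peaks spanned 104.4 kb, from chr7:27135202-27135602 to chr7:27239158-27239558, and the longest stretch without a peak was 16.8 kb. The strongest HOXA peaks were chr7:27200255-27200655 at 73 CPM, chr7:27195579-27195979 at 68.4 CPM and chr7:27169898-27170298 at 64.6 CPM. Together they held 34.5% of the signal of the cluster. The weakest, chr7:27231510-27231910, was at 4.29 CPM. Of the 17 HOXA peaks, 5 were in the top 10% of all peaks tested and 14 lay above the median of all peaks.

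HOXB spread over 192.7 kb, from chr17:46619136-46619536 to chr17:46811394-46811794. Its longest stretch without a peak, 50.42 kb, separated the last 2 peaks from the rest. The strongest peak of all 4 clusters, chr17:46687667-46688067 at 83 CPM, lay in HOXB, as did chr17:46655172-46655572 at 72.9 CPM, and no other HOXB peak was in the top 10% of all peaks. The third in rank was chr17:46670558-46670958 at 40.6 CPM. The 10 kb stretch from 90 to 100 kb into the window alone held 23.7% of the HOXB signal.

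HOXC and HOXD held fewer and weaker peaks. In HOXC, chr12:54394016-54394416 (56.6 CPM), chr12:54411913-54412313 (55.7 CPM) and chr12:54368580-54368980 (46.9 CPM) held 49.4% of the signal. The HOXC peaks ran from chr12:54332618-54333018 to chr12:54447291-54447691, and the longest gap, 21.84 kb, followed the first of them. In HOXD, chr2:176994696-176995096 (41.7 CPM), chr2:176957620-176958020 (36.7 CPM) and chr2:176987540-176987940 (32.4 CPM) held 55%. HOXD peaks ran from chr2:176939647-176940047 to chr2:177052973-177053373, with a gap of 47.25 kb before the last. No peak of either cluster was in the top 10% of all peaks.

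Peaks less than 12500 bases apart were joined into regions across the whole genome. Each cluster then had 1 main region and up to 4 smaller ones, 14 regions in all. The main HOXA region (chr7:27153141-27239558, 15 peaks) held 87.3% of the signal of its cluster. It ranked 40 of 26314 regions by CPM summed over the peaks of a region, a sum that grows with the number of peaks. The main HOXB region (chr17:46655172-46689093, 9 peaks) held 58% and ranked 136. The main HOXC region (chr12:54368580-54432213, 9 peaks) held 84.9% and ranked 225. The main HOXD region (chr2:176952812-177005721, 8 peaks) held 90% and ranked 583. Windows around the clusters were poorer in peaks: 200 kb on either side held 3 peaks at HOXA, 16 at HOXB, 8 at HOXC and 3 at HOXD. Per 10 kb that was 0.075 against 1 inside at HOXA, 0.4 against 0.792 at HOXB, 0.2 against 0.75 at HOXC and 0.075 against 0.667 at HOXD.

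The comparisons with DMSO ask how acetylation at the HOX clusters follows treatment with the degrader of the tagged fusion. The main region of HOXB fell after 24 h, 1 peak inside it was called lower at that time, and 1 HOXC peak rose after 2 h. No peak of HOXA or HOXD was called at any time. With 1 of 58 HOX peaks higher and 0 lower at 2 h, the calls of edgeR's quasi-likelihood test at an adjusted p under 0.05 stand beside 0.194% higher and 1.03% lower over all peaks. At 4 h, 0 of 58 HOX peaks were called, against 0.567% higher and 1.67% lower over all peaks. At 24 h, 1 of 58 was lower and 0 were higher, against 4.88% lower and 3.46% higher over all peaks. A count of 1 among 58 at 24 h is below that background.

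Over the HOX peaks of all clusters together, counts without adjustment, for p under 0.05 in edgeR, were also near or below the background. For the HOX peaks at 2 h they were 1 lower and 1 higher (6.42% and 4.71% of all peaks). At 4 h these counts were 3 lower and 1 higher (7.18% and 5.88%), and at 24 h 7 lower and 2 higher (11.2% and 9.83%). Of the 7 lower at 24 h, 6 were among the 19 HOXB peaks and 1 was in HOXD, with 0 in HOXA and HOXC. The 2 higher were 1 in HOXC and 1 in HOXD. The DESeq2 Wald test called 0 HOX peaks at each time. It gave an adjusted p to 33688 peaks at 2 h, 37739 at 4 h and 39360 at 24 h. Of those it called 0.0712% lower and 0% higher after 2 h, 0.207% and 0.0106% after 4 h, and 0.996% and 0.236% after 24 h. Between treated groups, edgeR called 0 HOX peaks from 2 h to 4 h (0% of all peaks either way) and 0 from 4 h to 24 h (0.68% lower, 0.438% higher). Their unadjusted counts were 1 lower and 1 higher (3.62% and 3.3% of all peaks) and 3 lower and 1 higher (7.1% and 6.36%). From 2 h to 24 h, 1 HOX peak fell and 0 rose (2.49% and 1.69% of all peaks), with 6 lower and 2 higher unadjusted (9.18% and 8.39%). DESeq2 called 0 HOX peaks here too. Of the peaks with a DESeq2 adjusted p (22345 from 2 h to 24 h), it called 0%, 0.00718% and 0.219% lower in these comparisons. It called 0%, 0% and 0.0537% of them higher. Among the 14 HOX regions, 0 rose at 2 h in edgeR, adjusted (0.474% of all regions) or not (5.17%). In DESeq2 0 rose too (0.025% of the 16006 regions with an adjusted p).

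Summed over the 58 peaks, H3K27ac was 1720 ± 20.1 CPM (SD, n = 2) in DMSO. After 2 h it was 1727 ± 28.5, after 4 h 1688 ± 4.97 and after 24 h 1623 ± 11.8. The median log2 change of the members at 24 h was -0.11, beside 0.00 over all peaks tested. The clusters differed in this value: it was -0.07 in HOXA, -0.26 in HOXB, 0.04 in HOXC and 0.00 in HOXD.

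**Figure D2:**
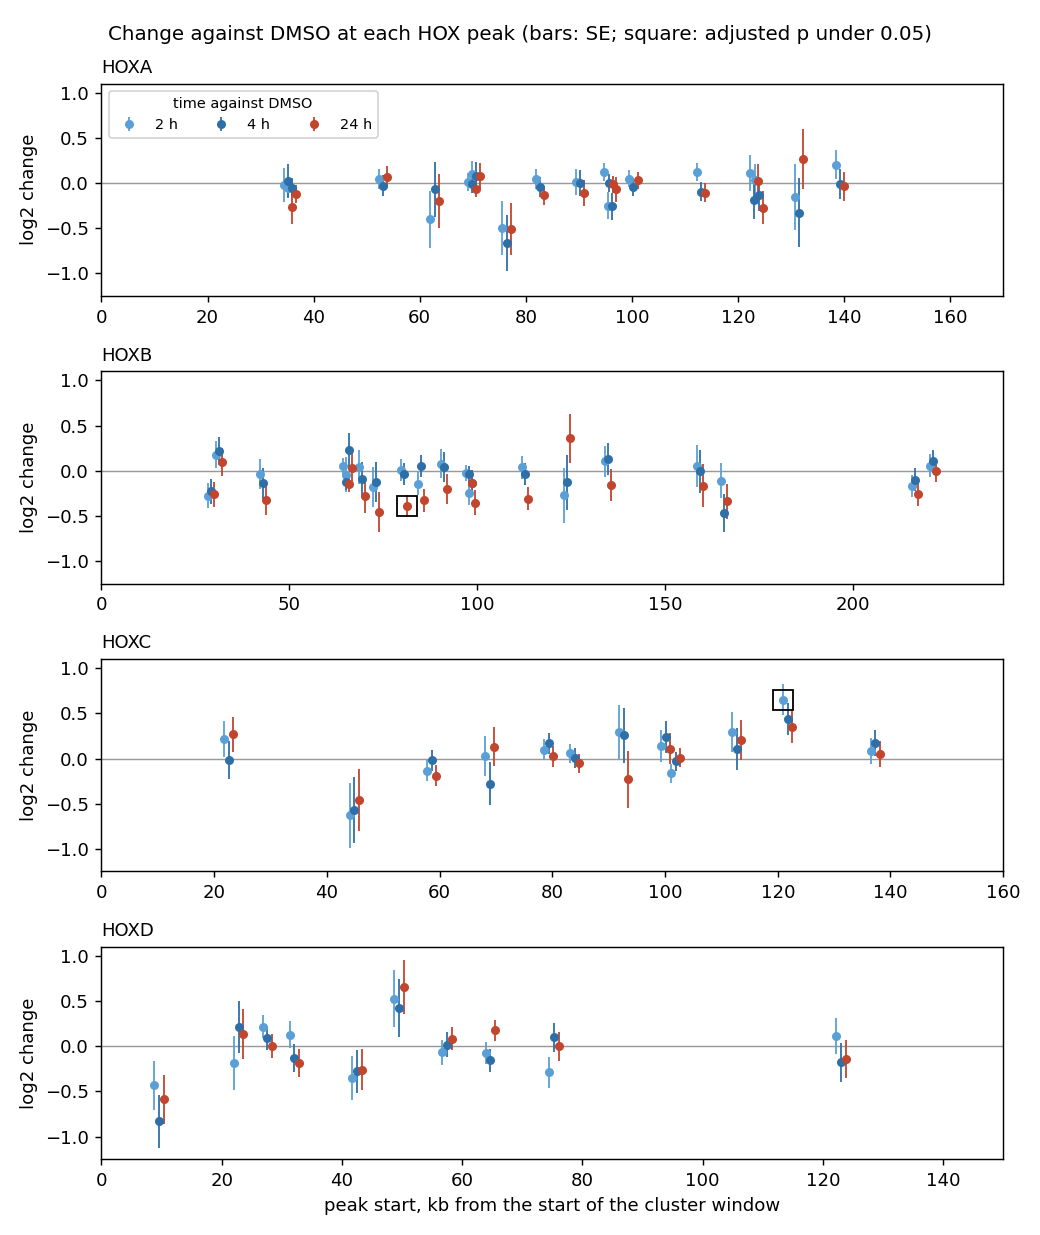
Log2 change against DMSO of each HOX peak (y axis) by distance of its start from the start of the cluster window in kb, at 2 h, 4 h and 24 h; bars are standard errors and squares mark calls at an adjusted p under 0.05. The 2 squares are the HOXB peak at 24 h (-0.39) and the HOXC peak at 2 h (0.65), and the 24 h values of HOXB lie mostly below 0.

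The HOX region called at 24 h lay in HOXB. This 9-peak main region, chr17:46655172-46689093, was at 344.02 and 346.97 CPM in the DMSO libraries. After 2 h it was at 334.94 and 342.10 CPM, after 4 h at 350.68 and 326.41, and after 24 h at 293.91 and 301.58. Both 24 h libraries lay below all 6 others. Both 2 h libraries and 4 h library B also lay below both DMSO libraries, 4 h library B the furthest, while 4 h library A lay above them. The region fell to 0.861 times its DMSO level at 24 h (95% interval 0.806 to 0.92; log2 change -0.22, SE 0.05, edgeR adjusted p = 0.000441). Over all regions tested, 5.55% were called lower at 24 h, and 1 of the 14 HOX regions was, a share near that background. At 2 h the log2 change was -0.03 (SE 0.05, edgeR adjusted p = 0.891), as it was at 4 h (SE 0.05, edgeR adjusted p = 0.857). Against 4 h the region fell at 24 h by 0.18 on the log2 scale (edgeR adjusted p = 0.0143) and against 2 h by 0.19 (edgeR adjusted p = 0.00552), where 1.24% and 3.14% of all regions were called lower. The call at 24 h against DMSO held without any 1 of the 4 libraries compared (edgeR adjusted p from 0.00412 to 0.0291), and DESeq2 gave the same log2 change without a call (-0.22, adjusted p = 0.089; 1.5% of all regions called lower). The call against 4 h was lost without 4 h library A (edgeR adjusted p = 0.317), 24 h library A (0.223) or 24 h library B (0.0643), and that against 2 h without 2 h library B (0.0889) or 24 h library A (0.126). DESeq2 made neither call (adjusted p = 0.759 and 0.334), with 0.0499% and 0.531% of regions called lower. These shares and the 1.5% above leave out regions without a DESeq2 adjusted p.

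The lower values were spread over the HOXB peaks. At 24 h, 15 of 19 had a negative log2 change, beside 49.8% of all peaks, and 11 of 19 had both 24 h libraries below both DMSO libraries, beside 25.1% of all peaks. None of the 19 had both above, beside 25% of all peaks. Inside the main region 8 of 9 peaks were negative. The peak called was chr17:46670558-46670958, at 43.56 and 43.47 CPM in DMSO. After 2 h it was at 40.18 and 46.73 CPM, after 4 h at 40.63 and 44.18, and after 24 h at 35.66 and 30.48. Its 24 h libraries lay below all others, while 2 h and 4 h surrounded the DMSO values. It fell to 0.764 times DMSO at 24 h (log2 change -0.39, SE 0.12, edgeR adjusted p = 0.0281) and also fell against 2 h (log2 change -0.40, edgeR adjusted p = 0.0307). This call was not made by DESeq2 (adjusted p = 0.476) and was lost without DMSO library A (edgeR adjusted p = 0.153), DMSO library B (0.151) or 24 h library B (0.288). Against 2 h it was lost in DESeq2 (adjusted p = 0.695) and without 2 h library B (edgeR adjusted p = 0.441) or 24 h library B (0.308).

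The other HOXB peaks had smaller or less certain changes. The strongest, chr17:46687667-46688067, was at 84.27 and 87.22 CPM in DMSO and at 75.28 and 81.67 at 24 h (log2 change -0.13, SE 0.09, edgeR adjusted p = 0.418). The neighbouring strong peak chr17:46655172-46655572 had a log2 change of -0.14 (SE 0.09, edgeR adjusted p = 0.409). At the ends of the cluster, the first peak (chr17:46619136-46619536) had -0.26 (edgeR adjusted p = 0.242) and the last (chr17:46811394-46811794) had 0.00 (edgeR adjusted p = 0.996). The highest value among the stronger HOXB peaks was 0.10, at chr17:46621437-46621837 (edgeR adjusted p = 0.784). The 4 smaller HOXB regions had 0.834 to 0.916 times their DMSO level at 24 h, and none was called (edgeR adjusted p from 0.288 to 0.456). No HOXB peak was called earlier. At 2 h 10 of 19 were negative and at 4 h 13, beside 49.2% and 49.4% of all peaks.

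**Figure D3:**
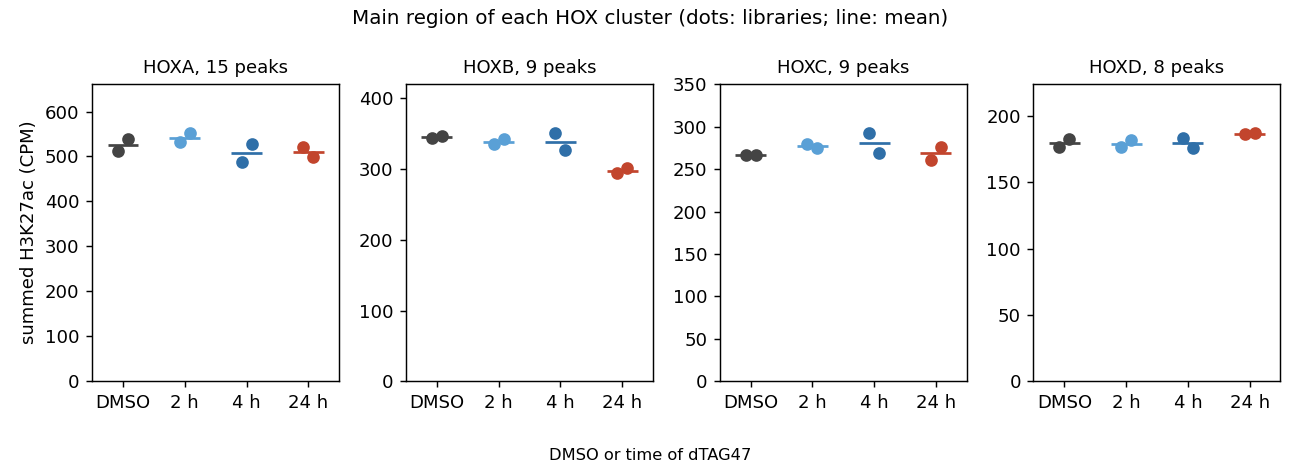
Summed H3K27ac of the main region of each cluster in CPM (y axis from 0) for DMSO and for 2 h, 4 h and 24 h of dTAG47; dots are single libraries and lines are means of 2. In HOXB both 24 h libraries (293.91 and 301.58 CPM) lie below the other 6, while in HOXA and HOXC the 24 h libraries overlap the DMSO libraries. In HOXD both 24 h libraries (186.29 and 186.95 CPM) lie above the other 6, without a call.

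The main regions of the other clusters were not called at any time against DMSO. The HOXA region was at 511.21 and 539.13 CPM in DMSO and at 520.03 and 498.76 at 24 h, so the groups overlapped. After 2 h its ratio to DMSO was 1.03 (95% interval 0.974 to 1.09), after 4 h 0.966 (0.911 to 1.02) and after 24 h 0.97 (0.916 to 1.03). Over all 8 libraries the HOXA region ran from 487.01 to 551.70 CPM. The HOXC region was at 266.25 and 266.88 CPM in DMSO and at 261.40 and 275.65 at 24 h, a ratio of 1.01 (0.938 to 1.08). At 2 h it was at 280.03 and 275.21 CPM (ratio 1.04, 0.969 to 1.12) and at 4 h at 292.37 and 269.57 CPM (ratio 1.05, 0.98 to 1.13), above both DMSO libraries. The HOXD region was at 176.84 and 182.82 CPM in DMSO and at 186.29 and 186.95 at 24 h, a ratio of 1.04 (0.957 to 1.13). Both of its 24 h libraries lay above all its other libraries, without a call (edgeR adjusted p = 0.679). These intervals use the spread that edgeR shares over all regions.

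A direct comparison of HOXB with the other clusters was chosen after these values were seen. The level of the main HOXB region divided by the sum of the main regions of HOXA, HOXC and HOXD was 0.3605 and 0.3509 in DMSO. After 2 h this ratio was 0.339 and 0.3391, after 4 h 0.3641 and 0.3358, and after 24 h 0.3037 and 0.3137. The 24 h ratios lay below all others. An exact permutation test of 2 libraries against 2 cannot give a p below 0.333, and it gave that value at 2 h and at 24 h. It therefore could not decide whether HOXB differed from the other clusters in its change.

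Peaks beyond the HOXB window also had mostly negative changes at 24 h. Of the 16 peaks within 200 kb, 15 had a negative log2 change at 24 h (49.8% of all peaks), with a median of -0.25, close to the -0.26 inside the window. Of these, 3 fell (4.88% of all peaks). At 4 h 15 of the 16 were already negative (49.4% of all peaks), with a median of -0.16 beside -0.04 inside the window. At 2 h 11 of the 16 were negative (49.2%), with a median of -0.12 beside -0.03 inside. The strongest losses, chosen for naming after their values were seen, were a pair of peaks about 50 kb past the end of the window. The peak chr17:46880031-46880431 was at 32.8 ± 5.38 CPM (SD, n = 2) in DMSO and at 16.3 ± 2.15 after 24 h, 0.4999 times DMSO (log2 SE 0.15, edgeR adjusted p = 1.95e-07; DESeq2 adjusted p = 0.00424). Its neighbour chr17:46879024-46879424 was at 23.2 ± 0.168 CPM and then at 11.9 ± 0.481 (log2 change -0.95, SE 0.18, DESeq2 adjusted p = 0.0447, edgeR adjusted p = 4.35e-05). Both had fallen by 2 h (log2 change -0.69 and -0.92, edgeR adjusted p = 0.00326 and 0.00115), calls that DESeq2 did not make (adjusted p = 0.758 and 0.527). At 4 h the first was called lower (edgeR adjusted p = 0.00458) and the second had a log2 change of -0.60 (edgeR adjusted p = 0.0521). The third, chr17:46560321-46560721, lay 29.7 kb before the window and fell by 0.45 at 24 h (edgeR adjusted p = 0.0123; DESeq2 adjusted p = 0.414). Around HOXD 1 of 3 peaks fell at 24 h, a weak one at chr2:176748410-176748810 (log2 change -0.97, edgeR adjusted p = 0.0306; DESeq2 adjusted p = 0.486). Around HOXA and HOXC, 0 of 3 and 0 of 8 were called at 24 h in edgeR and DESeq2, with 0 and 1 at an unadjusted p under 0.05.

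The single HOX gain was in HOXC. The peak chr12:54431813-54432213, the last of the main HOXC region, was at 15.94 and 16.48 CPM in DMSO. After 2 h it was at 24.49 and 26.24 CPM, after 4 h at 20.72 and 23.08, and after 24 h at 19.41 and 22.07. All 6 treated libraries lay above both DMSO libraries, and the 2 h libraries were the highest. It rose 1.57-fold at 2 h (log2 change 0.65, SE 0.17, edgeR adjusted p = 0.0221). Later, it was at a log2 change of 0.44 after 4 h (SE 0.18, edgeR adjusted p = 0.225) and 0.35 after 24 h (SE 0.17, edgeR adjusted p = 0.225), and from 2 h to 24 h it was -0.30 (SE 0.15, edgeR adjusted p = 0.269). DESeq2 did not call the 2 h gain (adjusted p = 1), and in edgeR it was lost without any 1 of the 4 libraries compared (adjusted p from 0.058 to 0.278).

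**Figure D4:**
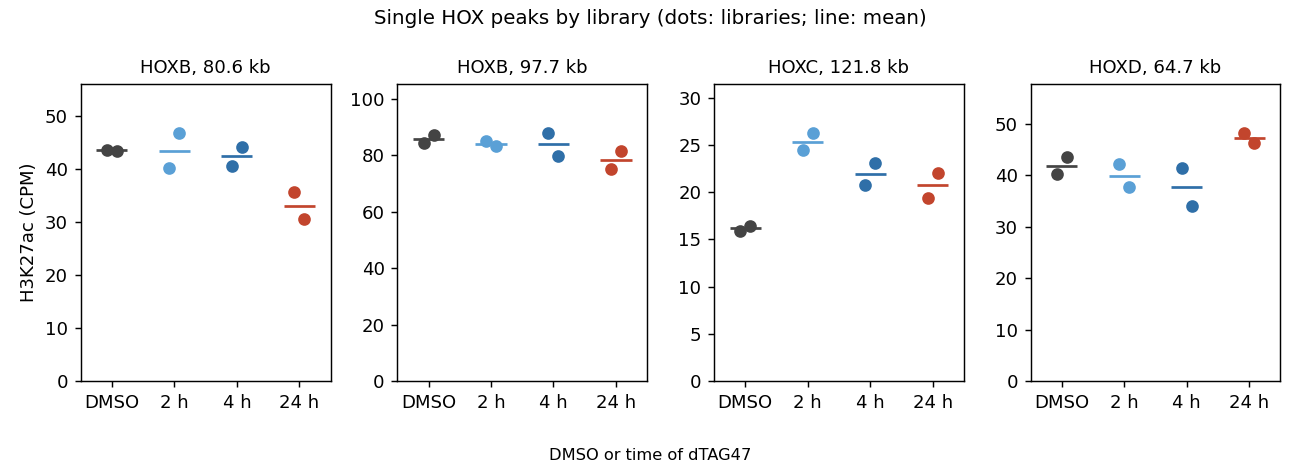
H3K27ac in CPM (y axes from 0) at single HOX peaks, named by cluster and distance from the start of the window in kb, for DMSO and for 2 h, 4 h and 24 h of dTAG47; dots are libraries and lines are means of 2. The HOXB peak at 80.6 kb is lower at 24 h (35.66 and 30.48 CPM), the HOXC peak at 121.8 kb is higher at 2 h (24.49 and 26.24 CPM), and the strongest HOXB and HOXD peaks were not called.

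The rest of HOXC showed no call. Its 3 strongest peaks had log2 changes at 24 h of -0.05 (chr12:54394016-54394416, edgeR adjusted p = 0.838), 0.01 (chr12:54411913-54412313, edgeR adjusted p = 0.974) and -0.19 (chr12:54368580-54368980, edgeR adjusted p = 0.347). The last was the lowest and the gained peak the highest among the stronger HOXC peaks. The first and last HOXC peaks had 0.27 (edgeR adjusted p = 0.458) and 0.05 (edgeR adjusted p = 0.884). Of the 12 HOXC peaks, 3 had a negative log2 change at 2 h, 5 at 4 h and 4 at 24 h.

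In HOXA no peak was called at any time. At 24 h the log2 changes of its 17 peaks ran from -0.50 to 0.26, with 12 negative, and 3 had both 24 h libraries below both DMSO libraries, which is below the 25.1% of all peaks. The strongest HOXA peak, chr7:27200255-27200655, was at 68.61 and 76.99 CPM in DMSO. With dTAG47 it was at 70.45 and 79.37 CPM (2 h), 61.35 and 78.92 CPM (4 h) and 76.66 and 71.66 CPM (24 h). The libraries of every group overlapped there. Its log2 change at 24 h was 0.03 with a 95% interval from -0.16 to 0.21. The next in level, chr7:27195579-27195979 and chr7:27169898-27170298, had -0.01 and -0.06 at 24 h (edgeR adjusted p = 0.958 and 0.792). Among the stronger HOXA peaks the lowest was chr7:27182739-27183139 (-0.13, edgeR adjusted p = 0.516) and the highest chr7:27170592-27170992 (0.08, edgeR adjusted p = 0.828). The end peaks, chr7:27135202-27135602 and chr7:27239158-27239558, had -0.27 (edgeR adjusted p = 0.442) and -0.04 (edgeR adjusted p = 0.933). At 4 h 14 of 17 HOXA peaks were negative, against 49.4% over all peaks, with a median of -0.05.

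In HOXD no peak was called at any time either, and 5 of 10 were negative at 24 h. The strongest peak, chr2:176994696-176995096, was at 40.14 and 43.47 CPM in DMSO. After 2 h it was at 42.10 and 37.76 CPM, after 4 h at 41.45 and 34.00, and after 24 h at 48.14 and 46.18. Its 24 h libraries were the highest, and the change was not called (log2 change 0.18, SE 0.12, edgeR adjusted p = 0.405); from 4 h to 24 h it was 0.33 (SE 0.12, edgeR adjusted p = 0.136). The peaks chr2:176957620-176958020 and chr2:176987540-176987940 had 0.00 and 0.09 at 24 h (edgeR adjusted p = 0.992 and 0.777). Among the stronger HOXD peaks, chr2:176962101-176962501 was the lowest (-0.18, edgeR adjusted p = 0.554).

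The weak HOXD peaks moved both ways, none with a call. The first, chr2:176939647-176940047, was at 10.53 and 7.95 CPM in DMSO. Treated libraries were at 6.05 and 7.47 CPM (2 h), 5.18 and 5.21 CPM (4 h) and 6.14 and 6.14 CPM (24 h). All 6 treated libraries lay below both DMSO libraries, and the log2 change was not called at 2 h (-0.43, edgeR adjusted p = 0.593), 4 h (-0.83, SE 0.29, edgeR adjusted p = 0.127) or 24 h (-0.59, SE 0.27, edgeR adjusted p = 0.175). It rested on 19 to 37 counts per library. An equally weak peak, chr2:176979486-176979886, named after its values were seen, was at 5.69 and 3.98 CPM in DMSO and at 7.53 and 7.73 CPM after 24 h. All 6 treated libraries lay above both DMSO libraries, and the log2 change at 24 h was 0.65 (SE 0.30, edgeR adjusted p = 0.177), the highest in HOXD. The last HOXD peak, chr2:177052973-177053373, had -0.14 at 24 h (edgeR adjusted p = 0.771).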

How the data were processed

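The authors deposited raw read counts per peak window for 8 H3K27ac libraries, counted over 1 common peak set, per the file headers; the values are whole numbers whose totals differ between libraries. Among the tools in the submitters' processing notes are DiffBind, MACS2, Bowtie2, DESeq2 and Trimmomatic 0.32, and the builds are dm3 and hg19, with no roles given; how peaks were called, duplicates and any spike-in are not given in the sources used here. The 2 input libraries were not used. The labels number the replicates and the columns call them A and B, so libraries are known by group only, and 0 columns were left without a group. Replicates differed a little beyond sampling noise over all peaks (chi-square per degree of freedom 1.06 to 1.21). They differed more over peaks with more than 1000 counts (1.61 to 3.65). The common dispersion in edgeR was low, at 0.0011. Each replicate was counted as a library, although these values do not show that libraries came from separate cultures.

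Counts were tested in edgeR 4.0.16 (R 4.3.3): filterByExpr (minimum count 10, minimum total 15; 41791 peaks and 26144 regions tested), TMM, and 1 robust quasi-likelihood fit over the 4 groups, with Benjamini-Hochberg adjustment over all peaks or regions and calls at 0.05. Regions joined peaks within 12500 bases. Errors of log2 changes are standard errors from the F statistic. DESeq2 1.42.0 was an alternative. The code was tested on simulated data. Starts are printed as deposited. Whether they count from 0 or 1 is not stated.

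Members and lists were chosen with earlier results of these data known. In each cluster the text names the 3 strongest peaks, every peak called against DMSO, the lowest and highest 24 h change among peaks at or above the median level of the cluster (the stronger peaks), and the first and last peak.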

Additional observations from a re-analysis of the deposited data

How the results depend on the processing

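Counts of HOX calls were small and depended on the test and on single libraries. Under the DESeq2 Wald test, 0 HOX peaks were higher at 2 h, 0 lower at 24 h and 0 lower at 24 h against 2 h, and 0 HOX regions were lower at 24 h against DMSO, 4 h or 2 h, each in place of 1. With each library left out in turn, the peak higher at 2 h was called 0 times, lower peaks at 24 h numbered 0 to 1, lower peaks at 24 h against 2 h 0 to 2, and lower regions at 24 h against 4 h or 2 h 0 to 1 each; a lone library was assumed to vary like the other groups. Over all peaks, too, fewer were called against DMSO with a library left out. With windows widened by 50 kb, 1 peak was lower at 2 h (1.03% of all peaks) and 3 at 24 h (4.88%). With regions joined within 5 kb, 1 HOX region was higher at 2 h. At that distance the HOXC peak called higher at 2 h, chr12:54431813-54432213, is a region by itself (gaps of 8.759 and 15.08 kb). DESeq2 size factors, total counts, offsets that follow abundance, no filter, a fit without robust dispersions and a fit of the 2 groups compared left these counts as they were, as did peaks wholly in the window for the peak counts against DMSO, where alone it was run.

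Changes near 0 turned sign, none of them called. The 24 h log2 change at chr7:27195579 was 0.0077 with total counts and 0.024 with offsets that follow abundance, and at chr17:46811394 -0.00022 in the fit of 2 groups. With a library left out, ranges were -0.0068 to 0.146 (chr7:27170592), -0.263 to 0.0066 (chr7:27182739), -0.107 to 0.063 (chr7:27195579), -0.052 to 0.115 (chr7:27200255), -0.086 to 0.013 (chr7:27239158), -0.087 to 0.096 (chr17:46811394), -0.189 to 0.098 (chr12:54394016), -0.048 to 0.071 (chr12:54411913), -0.091 to 0.106 (chr2:176957620), -0.0023 to 0.179 (chr2:176987540) and -0.299 to 0.023 (chr2:177052973), and for regions -0.028 to 0.049 (chr12:54368580) and -0.293 to 0.028 (chr2:177052973). The cause was not tested.

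The HOXB region at 24 h kept a negative change in each alternative (-0.23 to -0.20). The planned block on the replicate numbers of the labels was not run because the columns carry letters in their place, and nothing ties the letters to shared cultures or days. A replicate block by column letter, chosen after seeing the data, changed no HOX call (HOXB region at 24 h -0.22, edgeR adjusted p = 0.000313), and it called 2087 peaks lower and 1478 higher at 24 h against 2040 and 1448 without it. Deviations of same-letter libraries correlated between groups at -0.0333 to 0.0547 over peaks.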
